A study of Homo sapiens with 6 samples.

Results

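The 43 genes described here are interferon-stimulated genes, a group made of antiviral effectors, sensors of RNA, enzymes that act on double-stranded RNA, and the STAT and IRF factors that switch the group on. They were chosen by symbol so that a response to transfected RNA could be looked for, by a rule that uses no measured value, although earlier results of these data were known. Each symbol was matched to its Entrez row in the count table. All 43 had a row among the 23459 genes of the table, and 29 carried enough reads to be tested.

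The study asked how YAP, TAZ and JUN act on shared target genes. The libraries analysed here were made from MCF10A, a non-tumorigenic human mammary epithelial cell line, which the sample names mark as WT. All 6 cultures had received 20 nM siRNA with Lipofectamine RNAiMAX, with a non-targeting siRNA in the 3 siCtrl libraries and siRNA against YAP and TAZ in the 3 siYAP/TAZ libraries. The groups also shared the medium, which holds horse serum, insulin, hydrocortisone, cholera toxin and EGF. The time from transfection to harvest and the sequences of the siRNAs are not given in the sources used here. Every library was transfected, so a response that transfection raised equally in both groups cannot be told apart from the resting level of these genes. The comparison shows only where the groups differ.

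Interferons are secreted proteins that bind receptors at the cell surface. Type I and type III interferons activate JAK1 and TYK2, which phosphorylate STAT factors such as STAT2, and these join IRF9 in a complex that binds interferon-stimulated response elements (ISRE) in promoters. Interferon gamma acts through JAK1 and JAK2, and the response reaches promoters at gamma-activated sites (GAS). Epithelial cells can start this program when TLR3, RIGI, IFIH1, EIF2AK2 or the OAS enzymes meet double-stranded RNA. These sensors differ in the duplexes they detect. The siRNAs are short duplexes, and whether they engaged any of these sensors was not tested.

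Library totals were 3175149 to 4317286 counts. Values are given as CPM, that is counts after TMM scaling of the library totals. One transcript end gives about 1 read in this kind of library, so CPM was not divided by length. YAP1 and WWTR1, the genes of YAP and TAZ, were at 57.5% and 61.8% of the siCtrl mean, and neither overlapped between groups. For 2 libraries, siCtrl replicate 2 and siYAP/TAZ replicate 2, the title and the genotype tag both name the opposite group to the description. Both lay with their description for YAP1 and WWTR1, and the description was used. On the first principal component (48.4% of the variance), siCtrl replicate 2 lay at 7.15, next to the siYAP/TAZ libraries (9.77 to 33.7) and away from the other siCtrl libraries (-42.6 and -34.9). The calls, and the changes of the members it moves most, are therefore given with and without it. It was singled out from these same data for lying near siYAP/TAZ, so leaving it out can by itself widen the differences between groups. The 6 mammary basal epithelial markers exceeded 3 counts in every library, and their summed level was 1296 to 1665 CPM in siCtrl and 1113 to 1272 CPM in siYAP/TAZ. The sum was carried by KRT5, while TP63 and CDH1 of the same list had siYAP/TAZ means at 150.4% and 119% of siCtrl. Of 3 leukocyte markers, 0 did so. Of 3 fibroblast markers, PDGFRA did, at 154 to 183 CPM. Of 3 endothelial markers, PECAM1 and VWF did, and CDH5 held 0 to 2 counts. Their summed level was 2.01 to 3.39 CPM in siCtrl and 4.76 to 11.2 CPM in siYAP/TAZ, where PECAM1 alone gave 3.17 to 9.59 CPM. The part of these differences in the results was not tested. In bulk RNA, fewer cells of a type and less RNA per cell cannot be told apart.

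The upstream sequences of the members hold a feature that many of them share. RefSeq promoters (GRCh38.p14, 250 bases before to 50 bases after each gene start) were present for 35 of the 43 members. The ISRE core GAAANNGAAA, read on both strands, occurred in 25 of these 35 promoters (71.4%), against 3.57% of 35116 promoters in the table. The GAS letters TTCNNNGAA occurred in 11 of 35 (31.4%), against 7.66%. The members were listed as interferon-stimulated genes, so an excess of these elements comes with the choice of the list and is no separate result. GBP2, IFIT2, IFITM2, IRF7, MX2, OAS2, OASL and USP18 had no entry. The stretches below are shown for members to which the results return, written 5′ to 3′ on the strand of the gene, with the matched letters in capitals.
GBP1: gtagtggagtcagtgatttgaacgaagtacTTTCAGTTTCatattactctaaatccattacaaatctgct
IFI6: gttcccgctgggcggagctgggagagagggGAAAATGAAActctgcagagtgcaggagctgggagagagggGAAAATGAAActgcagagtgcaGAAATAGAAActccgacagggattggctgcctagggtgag
IFIT3: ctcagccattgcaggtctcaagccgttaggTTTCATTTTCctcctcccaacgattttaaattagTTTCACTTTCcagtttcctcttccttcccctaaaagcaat
IRF1: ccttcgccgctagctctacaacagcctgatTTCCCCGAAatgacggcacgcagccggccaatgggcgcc
The GBP1 stretch (chr1:89065296-89065365, minus strand) holds 1 ISRE core, on the opposite strand. IFI6 (chr1:27672246-27672378, minus strand) holds 3, and IFIT3 (chr10:89327811-89327914, plus strand) holds 2, both on the opposite strand. The IRF1 stretch (chr5:132490859-132490927, minus strand) holds 1 GAS match. A match of letters is a description of the window and was not tied to binding here. Among tested members, the 19 with an ISRE core had a median of 0.04 for the log2 fold change of siYAP/TAZ over siCtrl (called log2 change from here on), with 10 above 0, and in the 7 without a core in their window the median was 0.43, with 6 above 0. For the GAS letters the order was the other way, with a median of 0.29 in 8 members with a match (6 above 0) and 0.11 in 18 without (10 above 0).

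As a group, the members were expressed at a low to moderate level and differed little between siCtrl and siYAP/TAZ. With group as the only term, edgeR's quasi-likelihood test called 0 of the 29 tested members at a Benjamini-Hochberg adjusted p under 0.05, against 1.96% of the 12510 genes tested. DESeq2 called 0 of the 43 it fitted, against 3.06% of the 19181 genes it fitted. Both shares count low genes that it fitted but gave no adjusted p, which could not be called. Among the members these were the ones edgeR left untested, except IFIT2. At an unadjusted p under 0.05 there were 5 members, 4 higher in siYAP/TAZ (GBP2, IFI6, IFIT3 and IRF1) and 1 lower (GBP1). That is 17.2% of the tested members, and 17.7% of all genes did the same. Groups did not overlap for 8 members (27.6%), against 22.1% of all genes. These were the same 4 higher genes and, on the lower side, GBP1, EIF2AK2, HERC6 and USP18.

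The direction leaned to higher values by a small amount. The log2 change was above 0 for 17 members and below 0 for 12, so 58.6% were higher, against 49.9% of all genes. The median over the members was 0.18, beside -0.00093 over all genes tested. Without siCtrl replicate 2 the member median was 0.32, beside 0.01 over all genes. Within the pairs of libraries that share a replicate number, the member median of the log2 ratio was 0.20, 0.04 and 0.14 for replicates 1, 2 and 3. Of the tested members, 12 (41.4%) were higher in siYAP/TAZ in each pair and 5 (17.2%) were lower in each pair, against 23.3% and 22.8% of all genes. The 95% interval of the fold change stayed within 2-fold for 14 members and reached 2-fold or beyond for 15, so for these 15 a change of that size lies inside the interval.

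**Figure D1:**
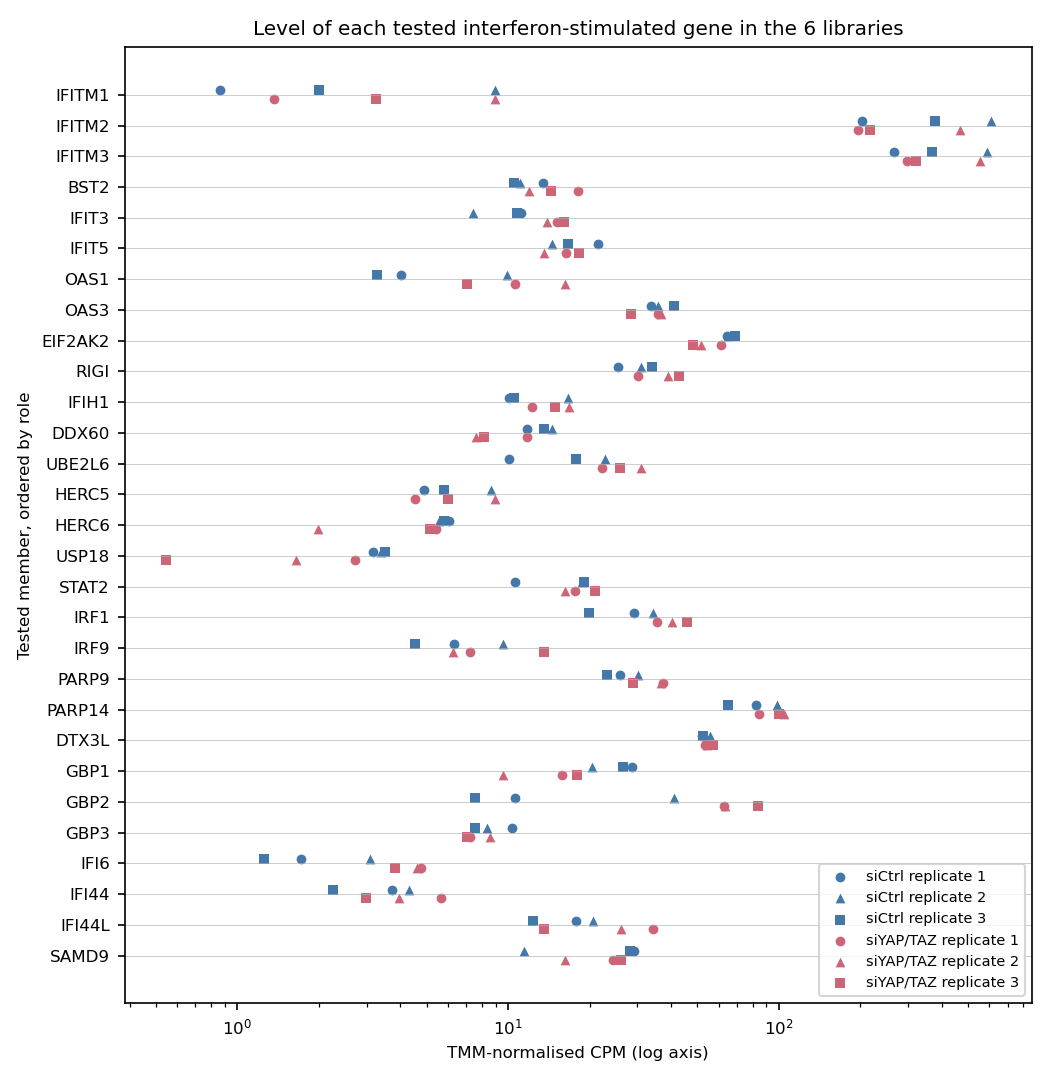
TMM-normalised CPM (log axis) of the 29 tested interferon-stimulated genes, ordered by role, with 1 point per library. Colour marks the group and shape the replicate number. GBP2 shows a wide gap between groups, while the IFITM genes are ordered by replicate number more than by group.

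More members passed once the replicate number was taken into account. In the fit with the replicate number as a block, 3 of 29 members (10.3%) passed the threshold, against 10.1% of all genes. GBP2 and OAS1 rose and GBP1 fell. Without siCtrl replicate 2, 4 of 30 tested members (13.3%) passed, against 12.3%, and IRF1 joined GBP2, OAS1 and GBP1. That library was left out after seeing where it lay, so this fit can favour larger differences and gives no separate support. When both libraries with disagreeing labels were left out, 1 of 29 (3.45%) passed, GBP2, against 9.29%. In each fit with more calls, the share of members called was close to or below the share of all genes.

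**Figure D2:**
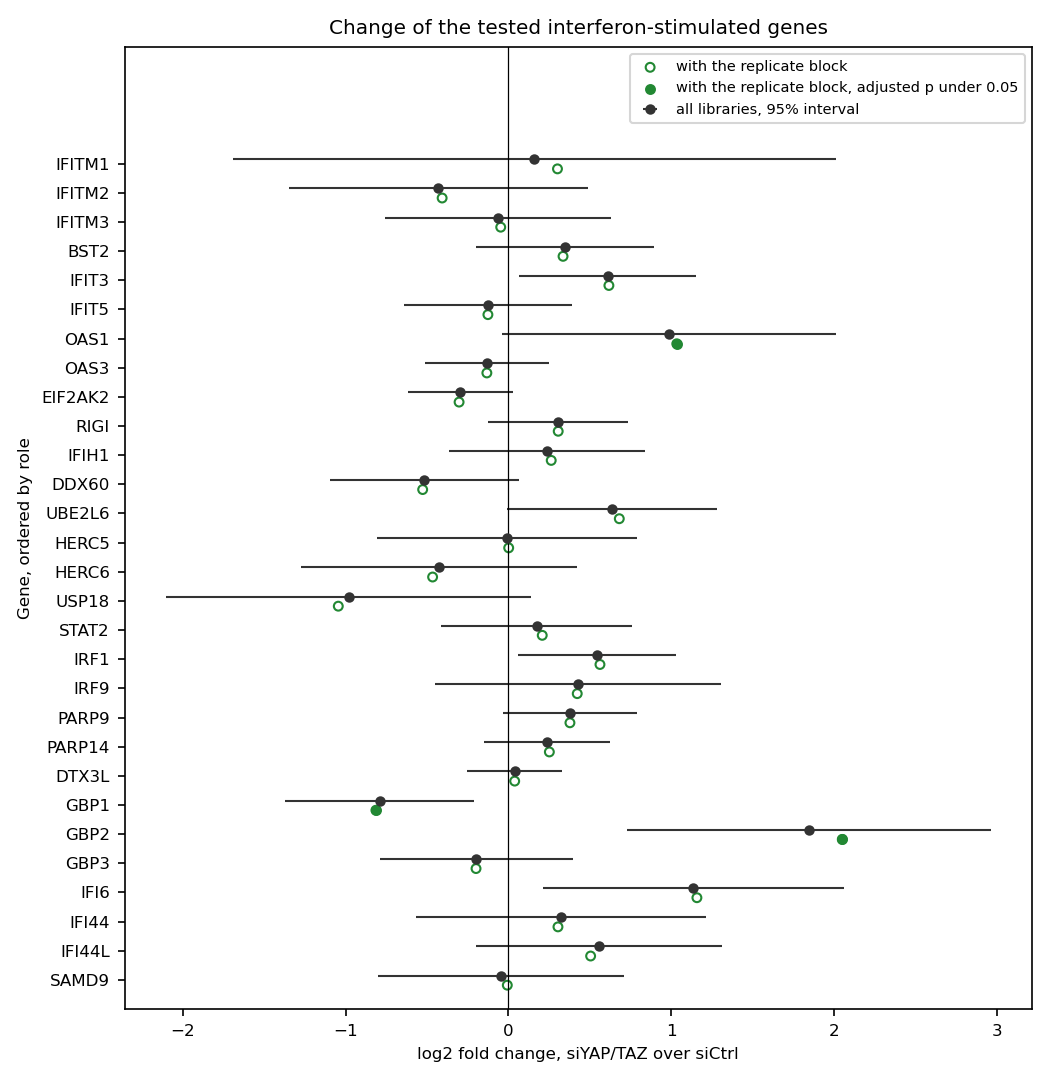
log2 fold change, siYAP/TAZ over siCtrl, of the 29 tested members. Black points and bars are the estimate and 95% interval from all 6 libraries with group as the only term, and green circles are the estimate with the replicate block, filled where the adjusted p was under 0.05 (GBP1, GBP2 and OAS1).

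Effectors against viral entry, replication and release were led by the IFITM proteins, membrane proteins that hinder fusion of enveloped viruses. IFITM2 (Entrez 10581, GRCh37 chromosome 11, 303655 to 309397, plus strand) was at 203, 607 and 377 CPM in siCtrl replicates 1, 2 and 3 and at 196, 467 and 218 CPM in siYAP/TAZ. IFITM3 (Entrez 10410, chromosome 11, 319676 to 329475, minus strand) was at 268, 589.7 and 368 CPM and at 298, 553 and 321 CPM. Replicate 2 was the highest library of each group for both genes, and the groups overlapped. The means of IFITM2 were 396 ± 203 and 294 ± 151 CPM (SD, n = 3), with a log2 change of -0.43 (SE 0.41, edgeR adjusted p 0.634). Those of IFITM3 were 409 ± 165 and 391 ± 141 CPM, with a change of -0.07 (SE 0.31, adjusted p 0.935). Within the replicate pairs the log2 ratio of IFITM2 was -0.05, -0.38 and -0.79, so all pairs were lower in siYAP/TAZ, and its change was -0.41 with the block (adjusted p 0.0961) and -0.48 without both replicate 2 libraries. Leaving out siCtrl replicate 2 alone, which breaks a pair in genes that are high in replicate 2 of both groups, gave 0.02 for IFITM2 and 0.30 for IFITM3. The coding sequences of IFITM2 and IFITM3 are nearly identical, and how reads shared by both were counted is not stated.

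The replicate number itself was tested in the blocked fit, a test chosen after seeing the data. It called 3 of the 29 members (10.3%), against 1.81% of all genes. All 3 were IFITM genes, which lie next to each other on chromosome 11, so this share rests on 1 locus. The adjusted p was 0.0087 for IFITM2, 0.0136 for IFITM3 and 0.0250 for IFITM1. IFITM1 was low, at 0.862, 8.95 and 2.01 CPM for siCtrl against 1.36, 8.92 and 3.26 CPM for siYAP/TAZ, so replicate 2 was highest in both groups here too. In all, 8 tested members (27.6%) were highest in replicate 2 in both groups, against 18.6% of all genes. Outside the members and chosen after its values were seen, SOCS3, a feedback inhibitor of JAK kinases, was also called for the replicate number, as the only 1 of 39 tested pathway genes (2.56%), with 6.03, 29.3 and 8.29 CPM for siCtrl against 2.49, 19.2 and 13.3 CPM for siYAP/TAZ (adjusted p the replicate number 0.0295). The replicate 2 libraries are also those with disagreeing labels, and the part of that fact in the pattern was not tested.

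BST2, the tether that holds budding virus particles at the cell surface, had a log2 change of 0.35 (95% interval -0.20 to 0.90). The interferon GTPases MX1 and MX2, the radical SAM enzyme RSAD2 and the exonuclease ISG20 were too low to test. RSAD2 held 1 count over all 6 libraries. MX1 held 1 to 4 counts a library, MX2 held 0 to 3, and ISG20 held 1 to 11.

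IFIT proteins bind viral RNA that lacks host cap marks. IFIT3 (Entrez 3437, chromosome 10, 91087064 to 91137230, plus strand) was at 11.2, 7.41 and 10.8 CPM in siCtrl and at 15.2, 13.9 and 16.0 CPM in siYAP/TAZ. Each siYAP/TAZ library was above each siCtrl library. The means were 9.80 ± 2.09 and 15.0 ± 1.09 CPM (SD, n = 3), a log2 change of 0.61 (SE 0.24, unadjusted p 0.0311, adjusted p 0.233), and the adjusted p was 0.124 with the replicate block. IFIT5 overlapped between groups at 13.6 to 21.5 CPM, with a change of -0.13. IFIT1 held 3 to 7 counts, and IFIT2 held 2 to 9 counts in siCtrl and 10 to 20 in siYAP/TAZ. Both were untested in edgeR with all libraries. IFIT2 joined the tested members without siCtrl replicate 2 (log2 change 0.75, edgeR adjusted p 0.316) and without both disagreeing libraries (0.68, 0.431). In DESeq2 the IFIT2 change was 1.13 (adjusted p 0.473). IFIT1, IFIT2 and IFIT3 lie within the annotated span of LIPA, on its opposite strand. LIPA held 316 to 522 counts, and whether reads were counted by strand is not stated.

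The enzymes that act on double-stranded RNA did not share a direction. OAS1 (Entrez 4938, chromosome 12, 113343661 to 113371024, plus strand), which makes the 2-5A signal that activates RNase L, was at 4.02, 9.87 and 3.27 CPM in siCtrl and at 10.7, 16.2 and 7.07 CPM in siYAP/TAZ. Replicate 2 was the highest library of each group, and siCtrl replicate 2 overlapped with siYAP/TAZ. Each siYAP/TAZ library was nonetheless above the siCtrl library of its own number, by 1.41, 0.71 and 1.11 on the log2 scale. Without the block the change was 0.99 (SE 0.46, edgeR adjusted p 0.298). With the block OAS1 rose by 1.04 (adjusted p 0.045), and without siCtrl replicate 2 by 1.62 (0.0309). Leaving out that library alone breaks a pair in a gene that is high in replicate 2 of both groups. Without both libraries with disagreeing labels the change of OAS1 was 1.29 (edgeR adjusted p 0.0703). Over all alternatives its adjusted p ran from 0.0309 to 0.943. The upper end came from grouping the libraries by title, as it did for each later range of adjusted p over the alternatives.

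OAS3, the long family member with the same activity, was at 33.6, 35.8 and 41.0 CPM in siCtrl and at 35.8, 36.7 and 28.6 CPM in siYAP/TAZ. The groups overlapped, with a log2 change of -0.13 (SE 0.17, adjusted p 0.742). EIF2AK2, the kinase PKR that halts translation when it binds double-stranded RNA, was at 64.3, 65.1 and 69.1 CPM in siCtrl and at 61.4, 51.6 and 48.4 CPM in siYAP/TAZ. Its groups did not overlap, with siYAP/TAZ the lower, but the change of -0.30 (SE 0.14, adjusted p 0.319) did not pass. OAS2 held 1 to 4 counts and OASL 0 to 5, both untested.

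The helicases that sense cytosolic RNA were all tested. RIGI (Entrez 23586, chromosome 9, 32455300 to 32526206, minus strand), which detects short duplexes with a 5′ triphosphate, was at 25.6, 30.9 and 33.9 CPM in siCtrl and at 30.1, 39.0 and 43.0 CPM in siYAP/TAZ. The groups overlapped by 1 siYAP/TAZ library, and the log2 change was 0.31 (SE 0.19, adjusted p 0.443). IFIH1, the sensor of long duplexes, had a change of 0.24 (adjusted p 0.694, and 0.50 without siCtrl replicate 2) and DDX60, a helicase that assists these sensors, one of -0.52 (0.335).

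ISG15 is a ubiquitin-like protein that interferon signalling attaches to other proteins. Its own gene held 1 to 8 counts a library and was not tested. UBE2L6, the conjugating enzyme, had a log2 change of 0.64 (95% interval -0.01 to 1.28, adjusted p 0.286), or 0.90 without siCtrl replicate 2. HERC5, the main ligase, was at -0.01 and the related HERC6 at -0.43 (adjusted p 0.995 and 0.607), and HERC5 turned to 0.25 without siCtrl replicate 2. USP18, which removes ISG15 and also blocks the type I receptor, was at 3.16, 3.39 and 3.52 CPM in siCtrl and at 2.72, 1.65 and 0.544 CPM in siYAP/TAZ. Its groups did not overlap, but the change of -0.98 (SE 0.50, adjusted p 0.344) rested on few reads.

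Among the factors that drive the program, IRF1 (Entrez 3659, chromosome 5, 131776132 to 131844411, minus strand) was at 29.3, 34.3 and 19.9 CPM in siCtrl and at 35.4, 40.3 and 45.7 CPM in siYAP/TAZ. All siYAP/TAZ libraries were above all siCtrl libraries, with the lowest siYAP/TAZ library just above siCtrl replicate 2. The log2 change was 0.55 (SE 0.22, adjusted p 0.237), and 0.73 without siCtrl replicate 2 (adjusted p 0.0486, where the alternatives ran from 0.0486 to 0.898). STAT2 and IRF9, partners in the complex that binds the ISRE, had changes of 0.18 (adjusted p 0.775) and 0.43 (0.617), which was 0.75 for IRF9 without siCtrl replicate 2. IRF7, the factor that amplifies type I interferon transcription, held 2 to 8 counts and was not tested.

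PARP14 and PARP9 are ADP-ribosyltransferase family proteins, and DTX3L is the ubiquitin ligase that works with PARP9. PARP14 was at 82.1, 98.1 and 65.1 CPM in siCtrl and at 84.5, 105 and 100.4 CPM in siYAP/TAZ, with overlapping groups and a log2 change of 0.24 (SE 0.17, adjusted p 0.507, and 0.39 without siCtrl replicate 2). PARP9 was at 25.8, 30.2 and 23.1 CPM and at 37.4, 36.7 and 28.8 CPM, with a change of 0.38 (SE 0.18, adjusted p 0.318). DTX3L was at 52.3, 55.9 and 52.5 CPM and at 53.3, 54.5 and 57.1 CPM. Its libraries hardly varied, and the change of 0.04 (SE 0.13) had a 95% interval of -0.26 to 0.33. PARP9 and DTX3L overlap at their starts on opposite strands.

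The guanylate-binding proteins, GTPases that attack vacuoles of intracellular pathogens, held the 2 members with the lowest p. GBP2 (Entrez 2634, chromosome 1, 89571815 to 89616139, minus strand) was at 10.6, 41.0 and 7.54 CPM in siCtrl and at 62.8, 63.5 and 83.5 CPM in siYAP/TAZ. The groups did not overlap, and siCtrl replicate 2 lay between its own group and siYAP/TAZ. The means were 19.7 ± 18.5 and 69.9 ± 11.8 CPM (SD, n = 3), and the log2 change was 1.85 (SE 0.50, unadjusted p 0.00439, edgeR adjusted p 0.0956). GBP2 rose by 2.05 with the block (adjusted p 0.0097) and by 2.95 without siCtrl replicate 2 (0.000144). Without both libraries with disagreeing labels the change was 3.02 (0.000159), and with no low-count filter 1.85 (0.0139). In DESeq2 it was 1.82 (adjusted p 0.161). Over all alternatives the adjusted p ran from 0.000144 to 0.898, with the upper end from grouping the libraries by title. GBP2 overlaps GBP7 on the same strand, and GBP7 held 7 to 18 counts where GBP2 held 30 to 307.

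GBP1 (Entrez 2633, chromosome 1, 89517565 to 89531043, minus strand), the neighbour of GBP2, went the other way. It was at 28.7, 20.4 and 26.6 CPM in siCtrl and at 15.9, 9.59 and 18 CPM in siYAP/TAZ. All siYAP/TAZ libraries were below all siCtrl libraries, and replicate 2 was the lowest of each group. The means were 25.2 ± 4.35 and 14.5 ± 4.35 CPM (SD, n = 3), with a log2 change of -0.79 (SE 0.26, unadjusted p 0.013, adjusted p 0.159). GBP1 fell by 0.81 with the block (adjusted p 0.0296) and by 0.92 without siCtrl replicate 2 (0.0401). Without both libraries with disagreeing labels its change was -0.71 (edgeR adjusted p 0.0705). The adjusted p ran from 0.0296 to 0.914 over the alternatives. GBP3, whose sequence is close to that of GBP1, was at 7.07 to 10.3 CPM, with a change of -0.20 (adjusted p 0.747). Thus 2 genes of 1 family had opposite signs in every alternative, each a refit of the same libraries.

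**Figure D3:**
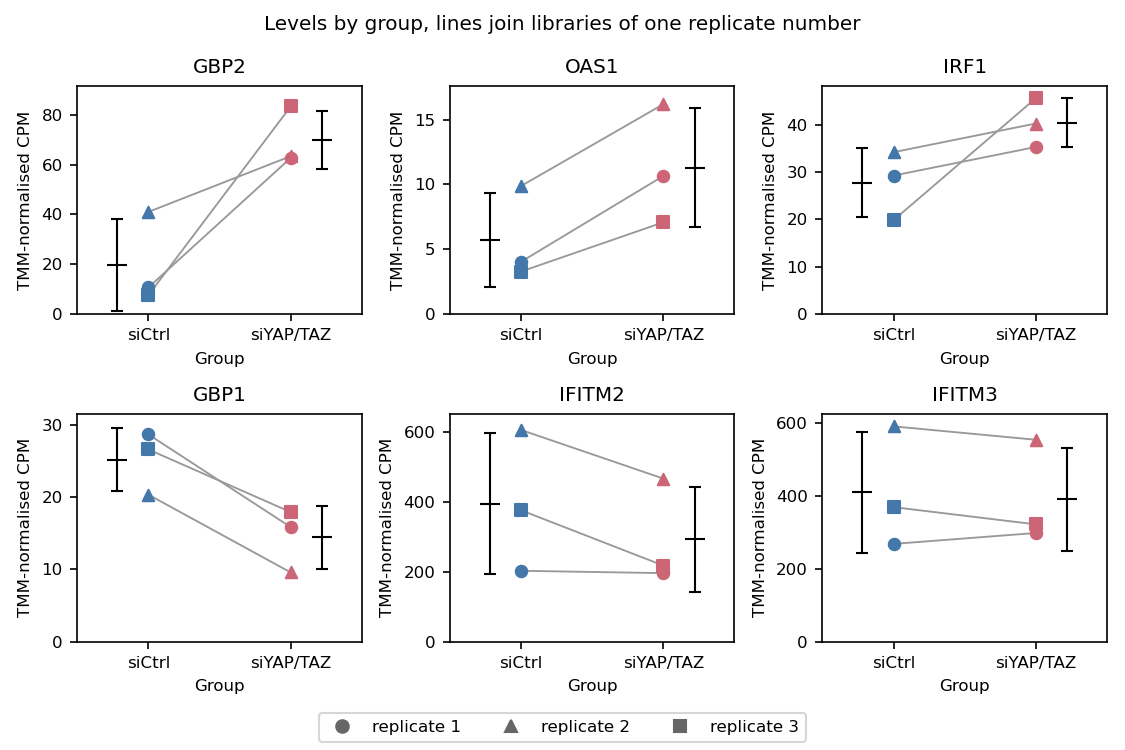
TMM-normalised CPM of 6 members by group, with lines joining libraries of 1 replicate number and bars giving the mean ± SD of 3 libraries. For GBP2, OAS1 and IRF1 all lines go up, for GBP1 all go down, and for IFITM2 and IFITM3 replicate 2 stays on top in both groups.

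The other interferon-induced members were mostly low. IFI6, a small endoplasmic reticulum and mitochondrial protein, was at 1.72, 3.09 and 1.26 CPM in siCtrl and at 4.76, 4.63 and 3.81 CPM in siYAP/TAZ. The groups did not overlap, and the log2 change was 1.14 (SE 0.41, unadjusted p 0.0208, adjusted p 0.198, and 0.11 with the block). IFI44L and IFI44 had changes of 0.56 and 0.32 (adjusted p 0.424 and 0.722), and SAMD9, a translation inhibitor, one of -0.04 (0.962). Without siCtrl replicate 2 these were 0.73, 0.52 and -0.35, and IFI6 was at 1.55. IFI27 (2 to 12 counts), IFI35 (1 to 10), SAMD9L (1 to 8) and XAF1 (0 or 1) were not tested.

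The untested members include several common readouts of an interferon response. The 14 were MX1, MX2, RSAD2, ISG20, IFIT1, IFIT2, OAS2, OASL, ISG15, IRF7, IFI27, IFI35, SAMD9L and XAF1, with 0 to 20 counts a library. A count was present in every library for 10 of them, and 3 did not exceed 3 counts in any library, the limit that a count of 0 allows (0.680 to 0.992 CPM after TMM scaling). Summed over the 14, the siCtrl libraries held 12.9, 13.0 and 13.8 CPM and the siYAP/TAZ libraries 15.5 CPM or more, up to 17.8 CPM. All 14 together were thus below the level of single moderate members such as RIGI. With no low-count filter none of the 14 passed, with adjusted p 0.33 for IFIT2 as the lowest.

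The rest of the pathway was read from a list of 58 genes, of which 39 were tested. At the top, the ligands were nearly silent. Of 9 interferon genes, 7 held 0 counts in all 6 libraries, among them IFNB1, the first interferon made after sensing of double-stranded RNA, and the lambda genes IFNL1, IFNL2 and IFNL3. IFNE held 1 to 6 counts and IFNK 0 to 3. Each 0 allows up to 3 counts in that library. The chemokine genes CXCL10 and CXCL11, common readouts of interferon, were close to silent too. CXCL10 held 0 counts in each siCtrl library and 2, 1 and 3 counts in the siYAP/TAZ libraries, all within the limit that a count of 0 allows, and CXCL11 held 0 counts throughout.

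With group as the only term 0 of the 39 tested pathway genes passed in edgeR, against the 1.96% of all genes, while 10 had an unadjusted p under 0.05 (8 higher and 2 lower, 25.6%, against 17.7% of all genes). DESeq2 called 1 of the 49 it fitted (2.04%), PLSCR1, against 3.06%, again counting genes without an adjusted p. Groups did not overlap for 12 (30.8%), against 22.1%. The median log2 change was 0.07, with 25 above 0 and 14 below. With the replicate block 5 passed (12.8%, against 10.1% of all genes), with IFNGR1, JAK1, PML and SP100 higher and PLSCR1 lower. Without siCtrl replicate 2 there were 4 (10.3%, against 12.3%), namely IFNGR1, JAK1 and TRIM25 higher and PLSCR1 lower.

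Among receptor chains and kinases, IFNGR1 and JAK1 passed with the block. IFNGR1, the ligand-binding chain of the interferon gamma receptor, was at 58.6, 77.5 and 40.2 CPM in siCtrl and at 99.5, 96.5 and 80.8 CPM in siYAP/TAZ. Its groups did not overlap. The log2 change was 0.66 (SE 0.22, adjusted p 0.168), and IFNGR1 rose by 0.69 with the block (0.0159, range over the alternatives 0.0115 to 0.898). JAK1, which serves all interferon receptors, was at 76.1, 99.4 and 79.4 CPM in siCtrl and at 115, 112 and 134 CPM in siYAP/TAZ. The groups were again apart, with a change of 0.50 (SE 0.15, adjusted p 0.12) that reached 0.51 (0.04) with the block (range 0.0157 to 0.898). JAK2, its partner at the gamma receptor, was at 40.5, 39.5 and 42.2 CPM and at 51.9, 49.3 and 58.5 CPM, with a change of 0.39 (SE 0.14, adjusted p 0.207, and 0.103 with the block). The JAK2 groups did not overlap either. The other gamma receptor chain, IFNGR2, had a change of 0.07. The type I receptor chains IFNAR1 and IFNAR2 had changes of 0.04 and -0.46 (adjusted p 0.924 and 0.365), and IFNAR2 was at -0.23 without siCtrl replicate 2.

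**Figure D4:**
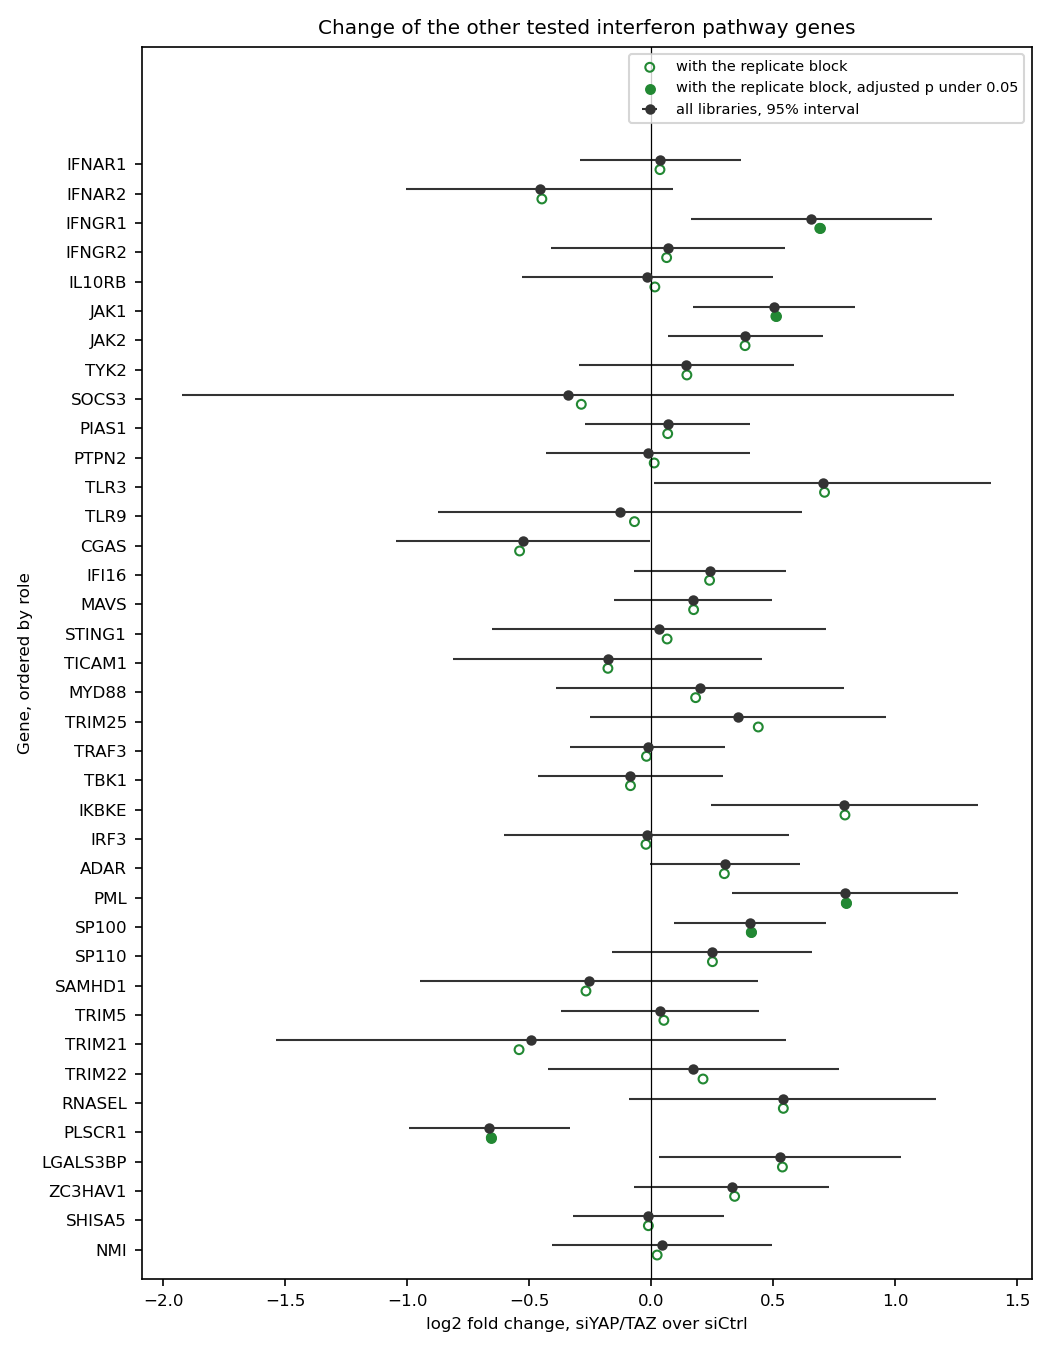
log2 fold change, siYAP/TAZ over siCtrl, of the other interferon pathway genes that were tested, 1 of the 39 left out, drawn as for the members. Filled green circles mark the 5 genes with an adjusted p under 0.05 with the replicate block: IFNGR1, JAK1, PML and SP100 to the right of 0 and PLSCR1 to the left.

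Sensors and their kinases did not share a direction. TLR3, the endosomal receptor for double-stranded RNA, was at 5.74, 4.94 and 3.27 CPM in siCtrl and at 7.71, 6.94 and 7.89 CPM in siYAP/TAZ, with a log2 change of 0.70 (SE 0.31, adjusted p 0.276). IKBKE, a kinase that phosphorylates IRF3 and IRF7, was at 14.6, 8.95 and 12.1 CPM and at 17.5, 21.5 and 23.1 CPM (0.79, SE 0.24, adjusted p 0.136). CGAS, the sensor of cytosolic DNA, was at 15.8, 16.4 and 16.8 CPM and at 14.1, 9.92 and 9.79 CPM (-0.53, SE 0.23, adjusted p 0.277). The groups did not overlap for these genes, with TLR3 and IKBKE higher and CGAS lower in siYAP/TAZ. TRIM25, a ubiquitin ligase that activates RIGI, was at 70.1, 139 and 61.8 CPM in siCtrl and at 106, 115 and 123 CPM in siYAP/TAZ. There siCtrl replicate 2 was the highest of all 6 libraries. The change was 0.36 (SE 0.27, adjusted p 0.535), and 0.81 without that library (0.00584, range 0.00584 to 0.898). The kinase TBK1, the adaptors MAVS and STING1 and the factor IRF3 lay between -0.09 and 0.17.

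Of the remaining induced genes, PML and SP100 encode proteins of the PML nuclear bodies. PML was at 19.0, 18.2 and 26.1 CPM in siCtrl and at 30.6, 38.3 and 41.3 CPM in siYAP/TAZ (log2 change 0.79, SE 0.21, adjusted p 0.0871, and 0.0162 with the block, range 0.0162 to 0.955). SP100 was at 160.3, 123 and 133 CPM and at 195, 171 and 185 CPM (0.40, SE 0.14, adjusted p 0.177, and 0.0435 with the block, range 0.0435 to 0.93). Both were higher in every siYAP/TAZ library than in any siCtrl library. PLSCR1, a phospholipid scramblase with antiviral activity, was at 67.5, 86.4 and 72.4 CPM in siCtrl and at 47.1, 50.6 and 45.1 CPM in siYAP/TAZ. It was lower in every siYAP/TAZ library, with a change of -0.66 (SE 0.15) and an adjusted p 0.0554 in edgeR, 0.0222 in DESeq2 and 0.0104 with the block (range 0.0104 to 0.955). LGALS3BP, a secreted glycoprotein, was at 15.5, 22.2 and 15.8 CPM and at 22.2, 30.4 and 24.7 CPM (0.53, SE 0.22, adjusted p 0.257).

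How far the calls on single members depended on the fit is shown for those that passed in at least 1 of the named fits. When libraries were grouped by title, no member passed, and the adjusted p was 0.898 or higher for GBP2, GBP1, OAS1 and IRF1. In that grouping YAP1 did not pass either (adjusted p 0.904). Of the other fits, the highest adjusted p was 0.316 for GBP2 and 0.576 for IRF1, without siYAP/TAZ replicate 3. It was 0.42 for GBP1, 0.633 for OAS1 and 0.883 for the pathway gene TRIM25, without siCtrl replicate 3.

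**Figure D5:**
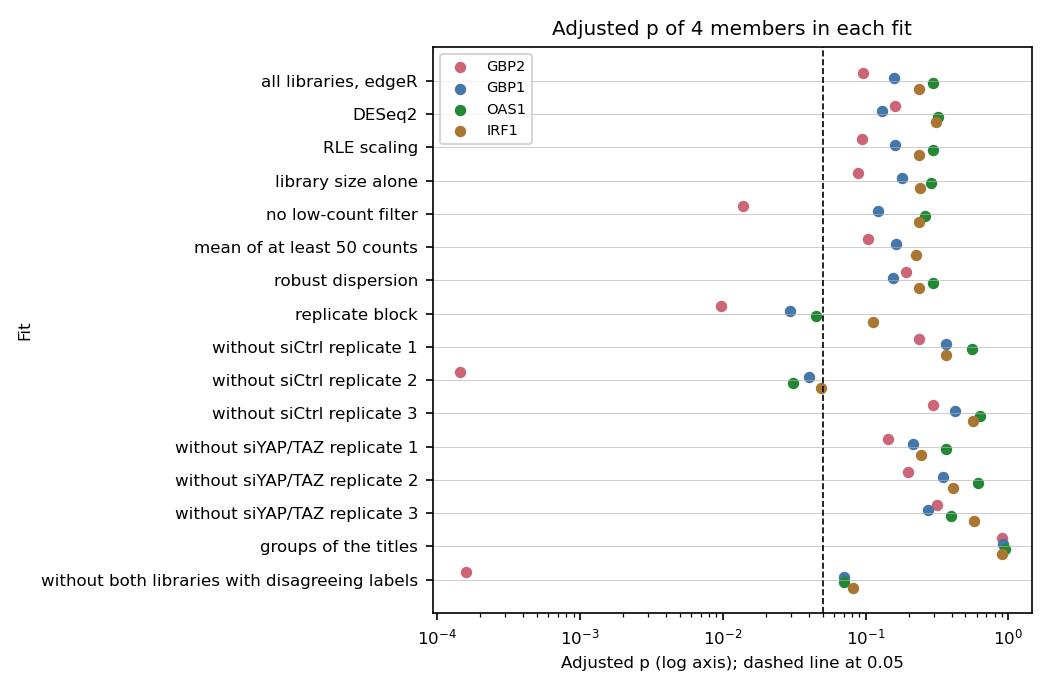
Adjusted p (log axis) of GBP2, GBP1, OAS1 and IRF1 in each fit, with the dashed line at 0.05. Points left of the line are confined to 4 fits: no low-count filter and the fit without both libraries with disagreeing labels (GBP2 only), the replicate block (GBP2, GBP1 and OAS1) and the fit without siCtrl replicate 2 (all 4). OAS1 has no point where a mean of at least 50 counts was required.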

How the data were processed

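The 6 libraries of 3′ mRNA-Seq (QuantSeq FWD, sense reads from polyadenylated 3′ ends) were analysed as deposited. The authors deposited raw counts per Entrez gene, with no normalisation and 0 rows without a gene. The submitters' processing notes name cutadapt 4.2, Bowtie2 2.3.5.1 and hg19, and the gene annotation and the use of strand are not given in the sources used here. Groups follow the description field.

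Differential expression was tested with edgeR 4.0.16 (R 4.3.3; quasi-likelihood F test, default low-count filter, TMM, group as the only term, Benjamini-Hochberg over 12510 genes). SE was derived from the log2 fold change and F. The study states 3 biological replicates for its RNA-Seq in general, but the labels of these libraries do not say so, and p-values measure only the spread between libraries. No libraries of a group agreed within sampling noise (chi-square per degree of freedom 5.37 to 17.4). Same-numbered libraries deviated together across genes (r of 0.416, 0.345 and 0.129), so the replicate block is given where it changes a call. Floors cover counting error only, since the reads carry no molecular identifiers. Other fits used RLE scaling, no scaling beyond library size, DESeq2 1.42.0, robust dispersion, no filter, a filter at a mean of 50 counts, the block, single libraries left out, groups of the titles, and both disagreeing libraries left out. The fitting steps were tested on simulated data that held no effect of replicate number, so that test does not bear on the calls with the block.

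Members and lists were chosen with earlier results of these data known. Values per library are given for members with an adjusted p under 0.05 in the fit of all libraries, with the block or without siCtrl replicate 2, with an unadjusted p under 0.05, or among the 10 most abundant, and for pathway genes by the p-value criteria. IFITM1 and USP18 fall outside this rule and were added after their values were seen. Symbols come from RefSeq (GRCh38.p14, 23308 IDs, 99.7% of counts) and gene coordinates from GENCODE lifted to GRCh37, the coordinates of hg19. A listed pathway gene counted among the tested ones is not reported here.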

Additional observations from a re-analysis of the deposited data

How the results depend on the processing

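The count of members called was 0 with all libraries, 1 with no low-count filter, 3 with the replicate block, 1 without both libraries with disagreeing labels, and 0 to 4 when single libraries were left out, with the 4 found without siCtrl replicate 2. For the pathway genes the counts were 0 with all libraries, 1 with DESeq2, with library size alone and with no filter, 5 with the replicate block, 4 without both disagreeing libraries, and 0 to 4 with single libraries left out. Over all genes, 245 were called with all libraries, 587 with DESeq2, 556 with no filter, 1263 with the replicate block, 0 with the groups of the titles (edgeR, 464 at an unadjusted p under 0.05), 1183 without both disagreeing libraries, and 16 to 1579 with single libraries left out, the 1579 without siCtrl replicate 2. The median log2 fold change of the members, 0.175, was 0.333 without both disagreeing libraries and 0.113 to 0.321 with single libraries left out, and was above 0 in all 15 alternatives. The cause of these shifts was not tested. With single libraries left out, IFITM2 ran from -0.929 to 0.0174 and IFITM3 from -0.397 to 0.296. The positive value of IFITM2 was that without siCtrl replicate 2, and IFITM3 was also positive there (0.296), at 0.0971 and 0.062 when siYAP/TAZ replicate 1 or 3 was left out, and at 0.0231 with the groups of the titles. The other 23 of 25 named genes kept their direction in every alternative in which they were tested. The replicate block changed no calls among members other than GBP2, OAS1 and GBP1. The low-count filter left 14 members with 0 to 20 counts a library untested.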
